A study of Mus musculus with 4 samples.

Results

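The comparison set undifferentiated 3T3-L1 cells against undifferentiated C3H10T1/2 cells, on RNA taken at day 0 of adipocyte induction. It used 2 of the 4 arrays of the study, 1 for each line, and 39960 of the 60900 probes on the array, namely those detected (flagged well above background) on at least 1 of them. The other 2 arrays held the same lines at day 4 of induction. Both lines are established mouse lines, and the labels give no genotype, passage or induction mixture that would separate the groups beyond line and day. The array was the Arraystar mouse design for long noncoding RNAs and mRNAs, hybridised with RNA depleted of ribosomal RNA and labelled with a single dye, Cy3. Differences are given as log2 of the 3T3-L1 signal minus log2 of the C3H10T1/2 signal, after the 75th percentile of each array was subtracted, so that a value of 1 is a 2-fold higher signal in 3T3-L1. With 1 array in each group there was no replicate check, and no test of the day 0 difference could be made.

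C3H10T1/2 cells came from mouse embryos and behave as mesenchymal progenitors, which can be turned towards fat, cartilage, bone or muscle. 3T3-L1 cells came from a fibroblast line of mouse embryos and were selected for their capacity to become fat cells, so they are called preadipocytes. The comparison describes a cell already committed to the fat lineage beside one that still has several fates, both before the differentiation signal. In such bulk RNA, a higher share of cells with a transcript and more of it in each cell cannot be told apart.

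The 4 arrays lay on 1 slide and were read in 1 scan. Signals were above background for 58.96% of probes in C3H10T1/2 and 63.9% in 3T3-L1 at day 0, against 60.1% and 60.6% at day 4. The 75th percentile of intensity was 321 and 388 units in the day 0 arrays. No spot was saturated, and 5 and 3 of 300 spots with negative control probes were called above background. Most probes carry only the identifier of the array maker, and 15 genes could be named through a RefSeq accession. None of the 8 lists of cell type markers, among them those for preadipocytes, mesenchymal progenitors and adipocytes, had a member that could be named, so the labelled cell types were not checked against their markers.

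Among the 34894 probes above background on both day 0 arrays, the lines were much alike. The levels had a Pearson correlation of 0.951 across probes, which are not independent replicates, and 88.3% of probes differed less than 2-fold. The median difference was -0.06, the SD was 0.80, and the middle 90 percent of probes lay between -1.06 and 1.12. Counting probes above background on at least 1 array, 5594 of 39960 differed at least 2-fold (14.0%). Of these, 3050 were higher in 3T3-L1 (7.63%) and 2544 were lower (6.37%). Where a probe was dim on 1 array, its signal there was raised to the detection floor of that array (the lowest signal counted as above background) if it lay under it, so the fold is a bound. Such bounds made up 925 of the higher and 574 of the lower probes. The balance between higher and lower depended on the scaling: with each array's median in place of its 75th percentile, 2751 probes were higher and 2932 lower. The plot of both signals shows them as measured, without the floor.

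**Figure D1:**
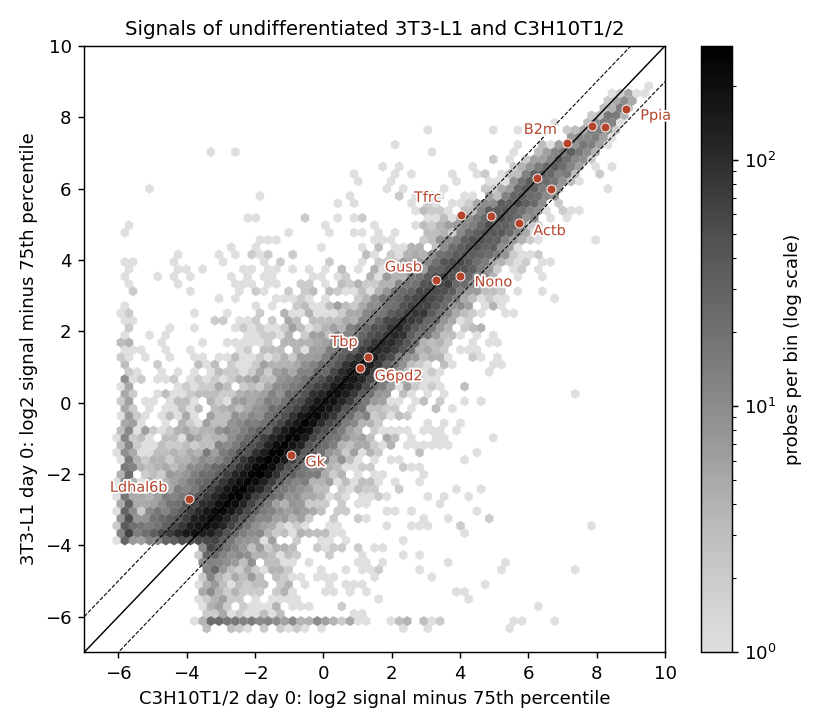
Level of each of the 39960 probes in C3H10T1/2 (x axis) and 3T3-L1 (y axis) at day 0, as log2 signal minus the 75th percentile of the array; shading gives the number of probes per bin on a log scale. The solid line marks equal levels and the dashed lines a 2-fold difference; red points are the 15 named genes, of which Tfrc and Ldhal6b lie above the upper dashed line and none lies under the lower one.

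Of the 15 named genes, 2 differed at least 2-fold, which is 13.3% against 14.0% of all probes tested, and both were higher in 3T3-L1. The 15 genes had a median difference of -0.10, beside -0.06 for all probes above background on both arrays. Each named gene was printed in 20 spots per array, of which 11 to 20 were used. The errors given for these genes are SDs of the difference over those spots, which cover the printing and reading of 1 array and not the spread between cultures. A limma fit over all 4 arrays estimated the mean line difference of both days. It gave these genes adjusted p-values (Benjamini-Hochberg over 38333 probes) from 0.608 to 0.996. Of the 15, 0 had an unadjusted limma p under 0.05, where 2706 higher and 2611 lower of the 38333 probes did.

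The transferrin receptor Tfrc, which brings iron bound to transferrin into the cell, had the highest difference among the named genes. Its intensity was 5236 units in C3H10T1/2 and 14989 units in 3T3-L1. The spots of the lines did not overlap: they ran from 4700 to 5589 units in C3H10T1/2 and from 14030 to 16442 units in 3T3-L1. The level in 3T3-L1 was 2.37-fold that in C3H10T1/2. This is a log2 difference of 1.25 ± 0.07 (SD over 20 spots), which lay between 1.18 and 1.32 under the other scalings. At day 4 the order was turned, with 50520 units in C3H10T1/2 and 26910 units in 3T3-L1 and a log2 difference of -0.88 ± 0.09. The limma line effect for Tfrc over both days was 0.18 ± 0.55 (SE), with an adjusted p of 0.933. Tfrc was the single member of the list for iron uptake and storage that could be named, out of 9.

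The promoter of Tfrc is shown beside that of Hprt, whose difference of -0.66 was the lowest among the named genes with a promoter found. Actb was slightly lower, at -0.67, and no promoter was found for it. The 250 bases before the transcription start were taken from RefSeq for the mouse assembly GRCm38.p6, both on the plus strand, at chr16:32608872-32609121 for Tfrc and chrX:52987828-52988077 for Hprt. Capitals mark the GC box GGGCGG, searched on both strands together with CCAAT and TATAAA, none of which overlap in these windows.
Tfrc: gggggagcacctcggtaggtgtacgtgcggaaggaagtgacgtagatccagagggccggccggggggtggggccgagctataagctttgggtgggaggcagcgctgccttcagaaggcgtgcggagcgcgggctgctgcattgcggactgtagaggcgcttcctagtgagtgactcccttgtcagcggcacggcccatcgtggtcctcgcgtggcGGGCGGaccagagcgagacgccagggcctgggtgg
Hprt: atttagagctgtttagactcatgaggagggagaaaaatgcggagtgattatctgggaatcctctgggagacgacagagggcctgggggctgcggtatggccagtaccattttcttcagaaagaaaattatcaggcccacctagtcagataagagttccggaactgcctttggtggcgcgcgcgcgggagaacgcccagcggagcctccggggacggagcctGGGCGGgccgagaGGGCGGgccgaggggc
The GC content was 68.0% for Tfrc and 59.6% for Hprt. The Tfrc window held 1 GC box and the Hprt window 2, and neither held a CCAAT or TATAAA match. Tfrc has an earlier start in RefSeq as well, whose window held 1 CCAAT and no GC box. Of 32851 RefSeq promoter windows of this length, 32.7% held a GC box, 33.8% a CCAAT and 12.4% a TATAAA. These matches describe the letters only, and no array measured the promoters. The array design was drawn on an older assembly, so its probes are given no coordinates.

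Of the named enzymes, Ldhal6b differed at least 2-fold by its bound, and G6pd2, Gk and Gusb differed less. Ldhal6b, a relative of lactate dehydrogenase described in testis, was above background in 0 of 18 spots in C3H10T1/2, with a mean of 21.2 units. It was above background in all 18 spots in 3T3-L1, with a mean of 59.6 units. The difference was at least 2.02-fold, close to the threshold, and with normexp background correction the log2 difference was 0.38. At day 4 it read 40.4 units in C3H10T1/2, with 17 of 18 spots above background, and 24.6 units in 3T3-L1, with 5. The order was then turned, with a log2 difference of -0.69 ± 0.35 (SD over 18 spots) near the background. G6pd2 encodes glucose-6-phosphate dehydrogenase, which opens the pentose phosphate pathway. It read 678 units in C3H10T1/2 and 765 units in 3T3-L1, a log2 difference of -0.10 ± 0.07 (SD over 18 spots; -0.17 to -0.04 over the scalings) with overlapping spots. The X-linked G6pdx is nearly identical in sequence, and the probe may read both. Gk, glycerol kinase, which phosphorylates glycerol for reuse in triglyceride, read 167 units in C3H10T1/2 and 139 units in 3T3-L1. Its level was lower in 3T3-L1 at all 18 spot positions (-0.54 ± 0.12), while at day 4 the difference was 0.16 ± 0.13. Gusb, a lysosomal enzyme that removes glucuronic acid, read 3126 and 4165 units, with a log2 difference of 0.14 ± 0.05 at day 0 (0.07 to 0.20 over the scalings) and -0.68 ± 0.07 at day 4.

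Gapdh, the glycolytic enzyme often used as a reference, gave unlike answers from its probes. The RefSeq probe read 74306 units in C3H10T1/2 and 83062 units in 3T3-L1, a log2 difference of -0.11 ± 0.07 (SD over 15 spots). Its sign depended on the scaling: it was between 0.25 and 0.30 under both quantile normalizations, normexp and the authors' deposited log2 values, and below 0 under the 75th percentile and median scalings. The 6 control probes named for GAPDH of mouse, rat or human were all above 0, from 0.06 to 0.63 with a median of 0.20. The lowest of them, the mouse probe named with a 3, went to -0.01 under median scaling. The 6 control probes named for PGK1, the next enzyme of glycolysis that makes ATP, were between 0.18 and 1.05 with a median of 0.56, and above 0 under the scalings by percentile and median run on them. One of the PGK1 probes, a human one named with a 5, passed 2-fold, at 37.8 units in C3H10T1/2 and 94.4 units in 3T3-L1. In both genes the mouse probe named with a 5 differed more than the one named with a 3: for GAPDH by 0.19 ± 0.09 against 0.06 ± 0.06, and for PGK1 by 0.71 ± 0.10 against 0.18 ± 0.08. The log2 signal of the mouse 5 probe minus the 3 probe of PGK1 was -7.54 in C3H10T1/2 and -7.02 in 3T3-L1. For GAPDH the same quantity was -1.11 and -0.98. The part of RNA or labelling quality in these differences was not tested. Processed pseudogenes of Gapdh are numerous, and the target of each probe is not given in the sources used here.

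Among the named genes of the cytoskeleton and of protein folding, Actb, Tuba1b and Ppia were lower in 3T3-L1 and Hsp90ab1 was close to equal. Actb, cytoplasmic actin, read 16983 units in C3H10T1/2 and 12843 units in 3T3-L1, and its level in 3T3-L1 was 1.60-fold lower (log2 difference -0.67 ± 0.05; n = 17 spots, SD). Tuba1b, an alpha tubulin of microtubules, read 97431 and 82272 units, with a log2 difference of -0.52 ± 0.05. Both had spots that did not overlap between the lines, and both were below 0 at day 4 as well (-0.24 ± 0.05 and -0.32 ± 0.06). The size for Tuba1b depended on the scaling and ran from -0.58 to -0.08, while that for Actb ran from -0.74 to -0.59. Ppia, a prolyl isomerase that helps proteins fold, read 148635 units in C3H10T1/2 and 116690 units in 3T3-L1, with a log2 difference of -0.62 ± 0.06 that ran from -0.69 to -0.17 over the scalings. Hsp90ab1, the constitutive HSP90 chaperone, differed by 0.02 ± 0.07 with overlapping spots (-0.05 under median scaling) and by 0.70 ± 0.08 at day 4. Actb, Ppia and Tuba1b have pseudogenes or near-identical copies that these probes may also read.

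Hprt, which recycles purine bases, read 32296 units in C3H10T1/2 and 24590 units in 3T3-L1. Its level was 1.59-fold lower in 3T3-L1 (-0.66 ± 0.07, SD over 17 spots) with no overlap of spots, and at day 4 the lines differed by 0.08 ± 0.14. Nono, an RNA-binding protein of paraspeckles, was lower by 0.44 ± 0.05 on this scale at day 0, from 5155 to 4582 units, and higher at day 4 (0.50 ± 0.06). Tbp, the TATA-binding protein of the basal transcription machinery, read 801 and 941 units and differed by -0.04 ± 0.08 (-0.11 to -0.01 over the scalings) with overlapping spots. Rpl13a, a protein of the large ribosomal subunit, read 9670 units in C3H10T1/2 and 14661 units in 3T3-L1 and was higher in 3T3-L1 at both days, by 0.33 ± 0.07 and 0.41 ± 0.06. B2m, which pairs with the heavy chains that display peptides to T cells, read 45133 and 60294 units, with a log2 difference of 0.15 ± 0.08 at day 0 and -0.32 ± 0.08 at day 4. Its day 0 difference ran from 0.08 under median scaling to between 0.42 and 0.44 under both quantile normalizations, normexp and the authors' deposited log2 values. Of the 18 genes on the list of reference genes, 10 could be named: 1 of them (Tfrc) differed at least 2-fold, where 14.0% of all probes tested did, 6 were below 0 and the median was -0.08.

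**Figure D2:**
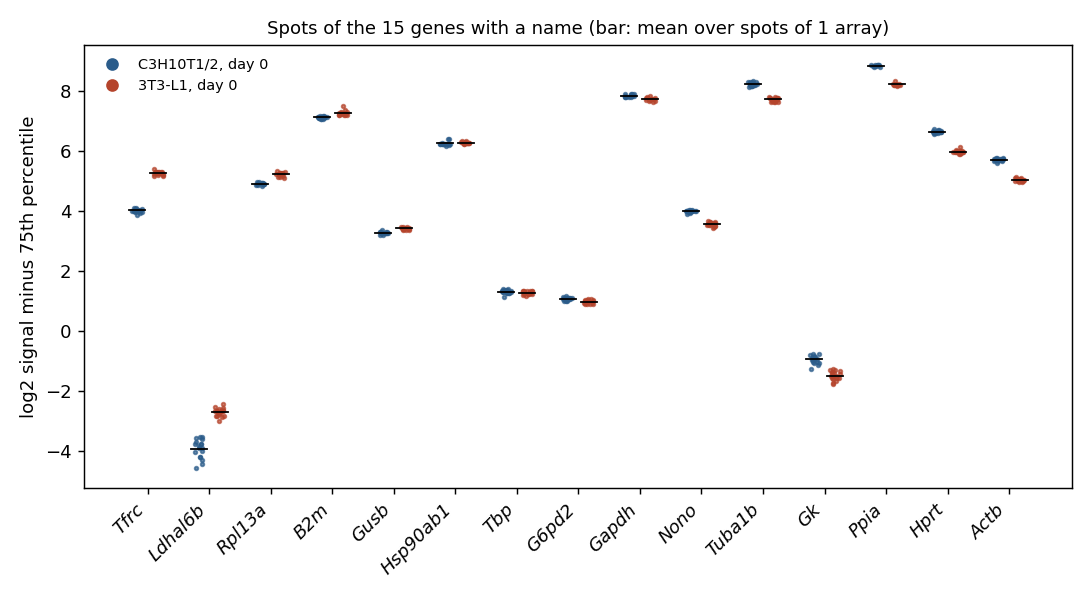
Level of every spot used for the 15 named genes (y axis, log2 signal minus the 75th percentile of the array) in C3H10T1/2 (blue) and 3T3-L1 (red) at day 0; the black bar is the mean over the spots of 1 array. The spots of Tfrc are higher in 3T3-L1 and those of Hprt and Actb lower, in each case without overlap, and those of Tbp and Hsp90ab1 overlap.

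**Figure D3:**
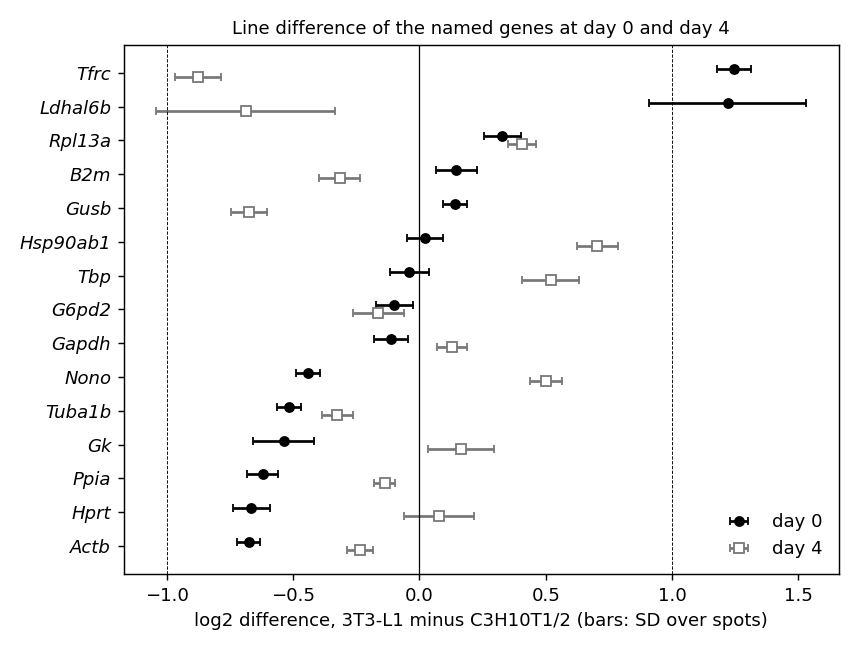
Line difference of each named gene (x axis, log2 signal of 3T3-L1 minus C3H10T1/2, without the bound for dim probes) at day 0 (filled circles) and day 4 (open squares); bars are SDs over the spots of 1 array pair and dashed lines mark 2-fold. Tfrc lies at 1.25 at day 0 and at -0.88 at day 4, and Nono at -0.44 and 0.50.

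The largest differences were found in probes without a gene name. The highest probe above background on both arrays, ASMM10P027376, read 32.3 units in C3H10T1/2 and 48198 units in 3T3-L1, a 1237-fold difference in level, and its 359-fold difference at day 4 pointed the same way. Probe ASMM10P040502 read 54.5 and 49346 units at day 0, a 750-fold difference. At day 4 it had reached 27971 units in C3H10T1/2 and 86804 units in 3T3-L1, so that the lines were then 3.17-fold apart. The other 3 of the 5 highest were ASMM10P036441, 206-fold higher at day 0 with a log2 difference of 6.13 at day 4, ASMM10P033203, 173-fold and 5.77-fold, and ASMM10P005886, 147-fold and 15.2-fold. In ASMM10P033203 the 3T3-L1 signal was lower at day 4, from 13591 to 645 units, while in ASMM10P040502 the C3H10T1/2 signal was higher. These 5 probes were chosen by their day 0 difference, so it is given as a description. With normexp background correction their day 0 log2 differences were smaller, from 5.95 to 8.98 in place of 7.20 to 10.27.

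In the other direction, ASMM10P051222 read 78112 units in C3H10T1/2 and 35.5 units in 3T3-L1, a 2653-fold lower level in 3T3-L1, and it was 1269-fold lower at day 4. The next 4 were ASMM10P030876 (258-fold lower), ASMM10P051247 (257-fold), ASMM10P013071 (233-fold) and ASMM10P011543 (186-fold). At day 4 they were 111-fold, at least 107-fold, at least 18.4-fold and 63.6-fold lower, and the bounds are due to a 3T3-L1 signal not well above background. With normexp the day 0 log2 differences of these 5 probes, chosen as the lowest, were from -9.51 to -5.82 in place of -11.37 to -7.54.

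Some probes were bright in 1 line and not well above background in the other. Probe ASMM10P033145 read 24144 units in 3T3-L1 and was at least 817-fold higher there at day 0, and 437-fold higher at day 4. ASMM10P040500 and ASMM10P040501 read 11255 and 9867 units in 3T3-L1 and were at least 381-fold and at least 334-fold higher. In C3H10T1/2 they went from not well above background at day 0 to 2714 and 3309 units at day 4. In the other direction, ASMM10P051221 read 55459 units in C3H10T1/2 and was at least 2691-fold lower in 3T3-L1, and at day 4 it was at least 921-fold lower. ASMM10P012552 read 36234 units in C3H10T1/2 at day 0 (at least 1758-fold lower in 3T3-L1) and 2834 units at day 4 (at least 119-fold lower). ASMM10P012442 was at least 1220-fold lower in 3T3-L1 at day 0 and 210-fold lower at day 4. With normexp the bounds of the 3 higher probes were from 7.10 to 8.29 on the log2 scale in place of 8.38 to 9.67, and those of the 3 lower probes from -9.36 to -8.43 in place of -11.39 to -10.25.

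The day 4 arrays were not part of the day 0 comparison, and they gave a separate reading of the line difference. At day 4, 2581 of 38917 probes tested were at least 2-fold higher in 3T3-L1 (6.63%) and 3231 were lower (8.30%). Of the 3050 probes higher in 3T3-L1 at day 0, 1081 were also at least 2-fold higher at day 4, which is 35.4% of the day 0 list and 41.9% of the day 4 list. Of the 2544 lower probes, 1037 recurred, or 40.8% of the day 0 list and 32.1% of the day 4 list. Differences turned around by at least 2-fold in 156 of the higher and 45 of the lower probes.

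The share that recurred was larger among the larger day 0 differences. The day 4 cutoff was 2-fold for every class, so a larger day 0 difference could shrink more and still count. Part of the rise is therefore built in. It was 64.5% of 991 higher and 65.5% of 718 lower probes at 4-fold or more, and 80.4% of 433 higher and 80.4% of 291 lower probes at 8-fold or more. At 64-fold or more, 41 of 43 higher and 47 of 51 lower probes recurred. Turning around was rarer there: 10 of the 433 higher and 1 of the 291 lower probes at 8-fold or more were at least 2-fold different in the opposite direction at day 4. Over the 37286 probes tested at both days, the line differences of day 0 and day 4 had a Pearson correlation of 0.56 and a Spearman correlation of 0.34 across probes, given as a description. Over the 32829 probes above background on all 4 arrays they were 0.47 and 0.30.

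**Figure D4:**
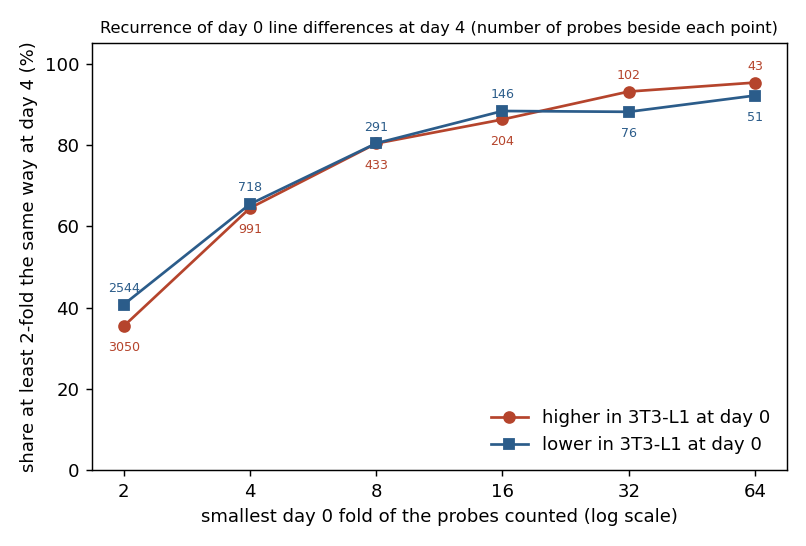
Share of probes (y axis, percent) that differed at least 2-fold the same way at day 4, among probes whose day 0 difference reached the fold on the x axis (log scale), for probes higher (red circles) and lower (blue squares) in 3T3-L1 at day 0; numbers beside the points count the probes. The share goes from 35.4% and 40.8% at 2-fold to 95.3% and 92.2% at 64-fold. The day 4 cutoff is 2-fold at every point, which favours the larger day 0 folds.

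The limma fit with terms for line and day called 654 of 38333 probes higher in 3T3-L1 (1.71%) and 497 lower (1.30%) at an adjusted p of 0.05, and 2706 and 2611 probes had an unadjusted p under 0.05. In this fit the 2 days stand in for replicates with 1 residual degree of freedom. The p-values weigh the mean line difference against a spread drawn from 2 sources. These are how far the probe's line difference changed between the days, and the spread of all probes. A change between days that both lines share does not enter it. They do not measure the spread between cultures. No call had a mean log2 difference under 1.76 in size. Rpl13a was alike at both days (0.33 and 0.41) and had an adjusted limma p of 0.678. An uncalled probe thus need not be unlike between the days. Of the called probes, 610 of 654 (93.3%) and 468 of 497 (94.2%) also differed at least 2-fold at day 0 in the same direction. The fit uses the day 0 arrays too, so this overlap was largely set in advance and is no separate evidence. They were 610 of the 3050 higher and 468 of the 2544 lower day 0 probes. The number of calls depended on the filter, the background correction and the model. Over the filters and normexp it ran from 155 to 1748 higher and from 108 to 1688 lower, and without a term for day it was 133 and 101.

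More probes were detected in undifferentiated 3T3-L1 alone than in C3H10T1/2 alone. At day 0, 4051 probes were above background in 3T3-L1 and not in C3H10T1/2 (10.1% of those tested), against 1015 with the opposite pattern (2.54%). Most were dim, with a median of 40.01 units in the first set and 46.5 units in the second, where the lowest signals above background on these arrays were 24.9 and 24.5 units. By bound, 925 of the 4051 and 574 of the 1015 differed at least 2-fold, and 199 and 142 at least 8-fold. At day 4, 1014 of the 4051 were still above background in 3T3-L1 alone, 1177 in both lines, 293 in C3H10T1/2 alone and 1567 in neither. Of the 1015 probes, 370 were still above background in C3H10T1/2 alone at day 4, 142 in both lines, 44 in 3T3-L1 alone and 459 in neither. The 3T3-L1 day 0 array had the highest share of probes above background of the 4 arrays, and the part of this in the count of 4051 was not tested.

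The share of probes that differed also varied with how bright they were. Among probes above background on both day 0 arrays, split into 4 equal groups by mean intensity, 3.73% of the dimmest group were at least 2-fold higher in 3T3-L1 and 4.26% lower. In the second group, from 95.4 to 259 units, these shares were 7.58% and 6.39%. In the third they were 7.53% and 6.16%, and in the brightest group, above 988 units, 5.52% and 5.78%. Higher calls outnumbered lower ones in the middle groups, and lower ones outnumbered higher ones in the dimmest and brightest. The dimmest group began at a mean of 26.5 units, and both signals had to be above background. Probes near that floor could hardly differ 2-fold, so part of the low share in this group is built in.

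By class of probe identifier, the main set (ASMM10P) had 2999 higher and 2487 lower probes among 39015 tested. Over all probes tested the shares were 7.63% higher and 6.37% lower. The ASMM10UP probes had 32 higher and 26 lower among 399 (8.02% and 6.52%). Probes named for long intergenic noncoding RNAs, transcripts between genes that encode no protein, were above background in 3T3-L1 for 26.5% of 1102 probes named humanlincRNA and 28.2% of 649 named mouselincRNA, where the main set had 65.4%. Of 305 humanlincRNA probes tested, 12 were higher (3.93%) and 21 lower (6.89%), with a median of -0.22. Of 191 mouselincRNA probes, 3 were higher (1.57%) and 7 lower (3.66%), with a median of -0.12. Of 35 MM9LINCRNAEXON probes 2 were higher (5.71%) and 3 lower (8.57%), with a median of -0.35. The medians cover probes above background on both arrays, and that of all probes was -0.06. The 3 classes were also dimmer. Among probes above background in 3T3-L1, the median intensity there was 73.7 units for humanlincRNA, 78.1 for mouselincRNA and 125 for MM9LINCRNAEXON. For the main set it was 232 units. In the dimmest group described above, 3.73% of probes were higher and 4.26% lower. The part of brightness in the class shares was not tested, and no test of the difference between classes was made.

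The following examples from these classes were chosen after their values were seen. MM9LINCRNAEXON12036-_P1 read 704 units in C3H10T1/2 and 76.2 units in 3T3-L1, 11.2-fold lower in level. At day 4 it read 44.8 and 21.2 units, the second not well above background. The mouse probe mouselincRNA0706-_P1 read 744 units in C3H10T1/2 and 197 units in 3T3-L1 at day 0 (4.56-fold lower), and 229 and 206 units at day 4. The probe humanlincRNA0318+_P1 read 135 units in C3H10T1/2 and 700 units in 3T3-L1 (4.30-fold higher), and 163 and 210 units at day 4. These 3 probes differed more at day 0 than at day 4. Others kept more of their difference: humanlincRNA1563+_P1 was at -1.90 at day 0 and -1.18 at day 4 on the log2 scale, and mouselincRNA1596+_P1 at 1.12 and 0.84. At day 4, 3 of the 12 higher and 7 of the 21 lower humanlincRNA probes were again at least 2-fold different the same way, as were 1 of 3 and 1 of 7 mouselincRNA probes and 0 of 2 and 1 of 3 MM9LINCRNAEXON probes. Over all probes, 35.4% of the higher and 40.8% of the lower recurred. These numbers are too small to set the classes apart from that. For 874 of the names there was a probe with a plus and one with a minus sign. In 454 pairs neither probe was above background at day 0, in 342 pairs one was and in 78 both were. One sign differed at least 2-fold in 41 pairs, and both did, in the same direction, in 1 pair. Both signs could be counted only in the 78 pairs. Of all probes tested, 14.0% differed at least 2-fold. What the signs stand for is not given in the sources used here.

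Some of the large day 0 differences lay in consecutively numbered probes. This was looked at after the values had been seen, and what the numbering follows is not given in the sources used here, so neighbours in number may share a gene or only a place in the design. When a probe differed at least 4-fold, the probe with the next number, where tested, differed at least 2-fold in the same direction in 22.7% of 1176 cases and in the opposite direction in 5.44%. At a distance of 10 numbers the same-direction share was 8.79%, and at 1000 it was 7.96%, as was the opposite share. Across the 21808 pairs of adjacent numbers the differences had a Pearson correlation of 0.15, against -0.01 at a distance of 1000, given as a description across probes.

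**Figure D5:**
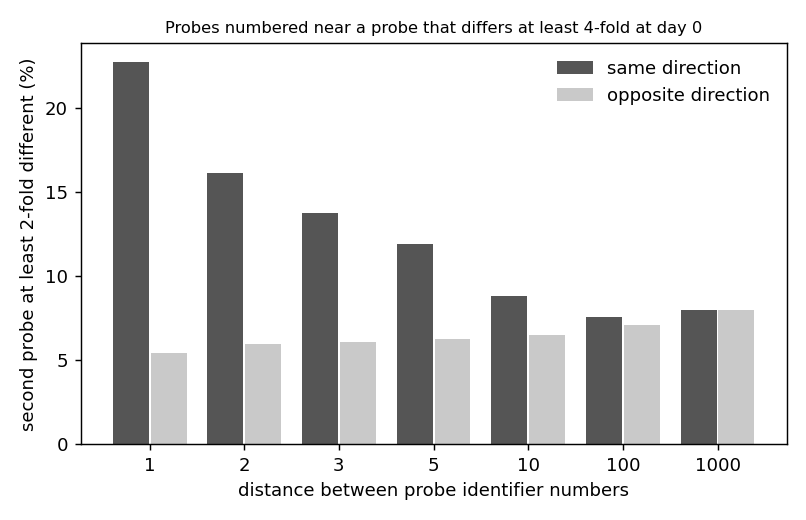
Share of probes (y axis, percent) that differed at least 2-fold at day 0 in the same (dark bars) or the opposite (light bars) direction as a probe with at least a 4-fold difference, by the distance between their identifier numbers (x axis). The dark bar goes from 22.7% at a distance of 1 to 7.96% at 1000, where both bars are equal.

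Of 985 probes of the main set that were at least 4-fold higher in 3T3-L1, 195 (19.8%) lay in 88 unbroken runs of consecutive numbers. Of 702 lower ones, 106 (15.1%) lay in 49 runs. In 44 of the 88 and 24 of the 49 runs, every member was also at least 2-fold different the same way at day 4. Taken singly, 64.5% of all higher and 65.5% of all lower probes at 4-fold or more recurred. The counts of runs are therefore not read as a property of runs. The longest run, ASMM10P011784 to ASMM10P011788, held 5 probes with log2 differences from 2.15 to 5.99, all 5 of them at least 2-fold higher at day 4 too. The run ASMM10P040500 to ASMM10P040502 held the probes named above that were bright in 3T3-L1 at day 0 and in both lines at day 4. The run ASMM10P005885 to ASMM10P005887 had differences from 4.96 to 7.20 at day 0 and a median of 3.23 at day 4. ASMM10P051221 and ASMM10P051222, the lowest by bound and the lowest of those above background on both arrays, stood next to each other at -11.39 (a bound) and -11.37. Further runs of lower probes followed. ASMM10P051225 to ASMM10P051226 had a median of -3.62 and ASMM10P051228 to ASMM10P051230 a median of -6.83. A run of 4, ASMM10P051234 to ASMM10P051237, had a median of -4.95.

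Adjacent numbers did not always go together. ASMM10P036441 was higher in 3T3-L1 by 7.68, while the next probe, ASMM10P036442, had a log2 difference of -4.92, and both kept their direction at day 4 (6.13 and -4.26). ASMM10P051219, 2 numbers before ASMM10P051221, was higher in 3T3-L1 by 5.08. ASMM10P030876, 258-fold lower, had neighbours within 3 numbers that differed by -0.30 to -0.05 or were not above background in either line at day 0.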

How the data were processed

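RNA of C3H10T1/2 and 3T3-L1 cells at days 0 and 4 was measured on 4 one-colour arrays, 1 per group. Agilent Feature Extraction 11.0.1.1 produced the deposited intensities, per the file headers, and subtracted background within each array without scaling between arrays. The authors' deposited log2 values are a separate table, whose normalization is not given in the sources used here. Set against the scanner intensities on the log2 scale, its columns gave Pearson's r of 0.9994 to 1.000 over 60804 probes, with medians of 5.93 each. It is therefore in the same direction and not centred, and was used as an alternative.

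The reported levels are log2 intensity minus each array's 75th percentile over noncontrol probes. Of the single-spot probes, 15 that were not uniform were left out, and repeated spots were averaged without the 47 spot positions marked as outliers on any array. The line effect was fitted with limma 3.58.1 in R 4.3.3 (lmFit and eBayes with line and day as terms, at least 2 of the 4 signals above background), and the fit was tested on simulated data, where it made more false calls than its threshold allows when each probe kept its own fitted spread. Alternatives were quantile normalization over 4 or 2 arrays, the 75th percentile of detected probes, the median, normexp with an offset of 50, the authors' values, other filters, no floor for dim arrays, an intensity trend and no term for day.

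The members and gene lists were chosen with earlier results of these data known. Named were all genes with an accession (15 of 15 matched RefSeq), the 5 highest and lowest probes above background on both arrays, the 3 highest by bound each way, and all GAPDH and PGK1 control probes. Of 20 gene lists, 11 had no named member. Promoters were found in RefSeq for 13 of the 15 genes. The number of arrays limits the precision. Figures were drawn with matplotlib 3.10.9.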

Additional observations from a re-analysis of the deposited data

Results flagged for a closer look

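For 5 named genes, all of the 15 to 20 spot positions used differed between the lines in one direction at day 0 and in the opposite direction at day 4. This difference between the days was not tested. The log2 differences (3T3-L1 minus C3H10T1/2) were 1.25 at day 0 and -0.88 at day 4 for Tfrc, 0.15 and -0.32 for B2m, and 0.14 and -0.68 for Gusb. They were -0.11 and 0.13 for Gapdh, whose day 0 sign turned under 4 of the 6 other scalings, and -0.44 and 0.50 for Nono. Spots of 1 array are technical repeats, so an opposite direction at both days does not measure biological spread.

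Some positive and design control probes outside the comparison were above background in 1 line only at day 0. The probe (+)E1A_r60_a20 read 118 units in 3T3-L1 and 6.04 units in C3H10T1/2, at least 2.00 higher on the log2 scale. DCP_20_0, DCP_20_1 and DCP_20_3 were at least 2.23, 2.09 and 1.90 higher in 3T3-L1. ETG10_13482 read 44.0 units in C3H10T1/2 and 9.94 units in 3T3-L1, a log2 difference of -1.10 by bound. At day 4 all of them differed the same way. Without the floor, the log2 differences were then 3.15 for (+)E1A_r60_a20, 3.19, 2.51 and 3.02 for the DCP probes and -2.40 for ETG10_13482. At day 0, 4 of 10 E1A, 7 of 18 DCP and 1 of 13 ETG probes were above background in 3T3-L1. In C3H10T1/2 there were 3, 2 and 2. What these probes read is not given in the sources used here.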

How the results depend on the processing

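Of 58 values of counts, shares and limma calls under the alternatives, 37 were counted as unchanged and 21 as moved. The allowance for counts was wide. The 971 higher limma calls under median scaling, against 654, counted as unchanged. So did 2125 higher day 0 probes with the filter on both day 0 arrays, against 3050. For shares it was narrow, and 38.7% against 40.8% counted as moved. Counts and shares have no sign that could reverse. The balance between higher and lower probes at day 0 did turn under median scaling, with 2751 higher and 2932 lower. With normexp, 1925 probes were higher and 1497 lower at day 0. The recurring share of higher probes was 38.1% under median scaling, 32.2% with no filter and 33.4% with no floor. For lower probes it was 38.7% under quantile normalization over 4 arrays, 38.1% under median scaling, 37.8% with normexp, 38.8% with the authors' values and 35.2% with no filter. The limma calls were 155 higher and 108 lower with normexp, 370 and 304 with the filter on all 4 arrays, 344 and 301 with the filter on both day 0 arrays, 1748 and 1688 with no filter, and 133 and 101 with no term for day. Median scaling gave 971 higher and 872 lower calls. The stricter filters tested fewer probes. The cause of the other shifts was not tested. Among single genes and probes, 126 of 226 values stayed within the spread used and 100 moved. For genes and control probes this spread was the SD over their own spots. For probes without a gene name it was 0.07, the median of these SDs over the named genes. The sign turned for Gapdh under 4 scalings. It also turned for Hsp90ab1 and the mouse GAPDH probe named with a 3 under median scaling. A block for slide or scan could not be fitted, since there was 1 of each. No paired analysis was possible because the 2 groups hold 1 array each. Dim probes limit the comparison: below about 25 units a signal is not told from background.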
